A study of Mus musculus with 42 samples.

Results

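The 35 genes described here encode the contractile, calcium-handling and energy-supplying proteins of skeletal muscle, and they were chosen by name as the genes of muscle tissue that can lie next to a tumour grown under the skin. Each of the 35 symbols matched 1 row among 47729 genes in the deposited table, and 35 of 35 passed the filter on low values (10 or more in 3 or more tumours), which 16613 genes passed in all. RNA came from subcutaneous tumours of Pan02, a mouse pancreatic adenocarcinoma line injected into the flank of C57BL/6 mice, with 1 library for each of 42 animals in 14 groups of 3. BXCL701 is an oral inhibitor of dipeptidyl peptidases, and the series asked how such inhibition alters the tumour over time. Vehicle tumours were taken at 0 h on days 1, 7 and 14, and BXCL701 tumours (20 ug a mouse by daily gavage, a single dose for day 1) on day 1 at 1, 8 and 16 h, and on each later day at those hours and at 0 h. Treatment and harvest hour therefore cannot be told apart at 1, 8 and 16 h. All 14 groups share the cell line and the injection site, and how much tissue around each tumour was taken with it is not given in the sources used here. Animal age is not given there either.

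In skeletal muscle, a nerve impulse opens calcium channels in the cell membrane and in the sarcoplasmic reticulum, calcium binds the troponin complex on the actin filament, and myosin heads then pull on the actin. Fast and slow fibres do this with different gene copies: fast fibres use the myosins Myh4, Myh1 and Myh2 and the troponins Tnnt3, Tnni2 and Tnnc2, while slow fibres use Myh7 and the troponins Tnnt1, Tnni1 and Tnnc1. Creatine kinase, glycogen phosphorylase and enolase keep the supply of ATP. A mouse carries a thin sheet of muscle beneath the skin of the trunk, and body-wall muscle lies deeper.

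Muscle transcripts were present in most tumours at levels that differed widely between animals given the same treatment. In a linear measure that allows for transcript length (FPKM, fragments per kilobase of transcript and per unit of library size), the 35 genes held between 0.0230% and 2.33% of a tumour's summed FPKM, with a median of 0.159% over 42 tumours. That is a 102-fold range. The vehicle tumours of day 1 held 0.146%, 0.466% and 0.182%, those of day 7 held 0.0268%, 0.132% and 0.230%, and those of day 14 held 0.149%, 0.0567% and 0.205%. Among BXCL701 tumours of day 14, the shares were 0.0286%, 0.159% and 0.0435% at 0 h, 2.33%, 0.237% and 0.332% at 1 h, 0.0290%, 0.839% and 0.0821% at 8 h, and 0.0775%, 0.0407% and 0.171% at 16 h. The highest tumour of a group exceeded the lowest by between 1.34-fold (BXCL701 day 1, 1 h) and 28.9-fold (BXCL701 day 14, 8 h). In 5 tumours at least 10 of the 35 genes were below a value of 10: vehicle day 7 replicate 1, BXCL701 day 7 at 8 h replicate 1 and at 16 h replicate 1, and BXCL701 day 14 at 0 h replicate 1 and at 8 h replicate 1. These 5 belong to 5 different groups, 1 of them a vehicle group. In bulk tumour RNA, fewer muscle fibres and less muscle RNA per fibre cannot be told apart. The tumour with 2.33% (BXCL701 day 14, 1 h, replicate 1) also had the highest level of all 10 adipocyte markers examined, with a summed FPKM of 3745 against a median of 209 over 42 tumours. Its adipocyte markers included Adipoq (adiponectin) at 140 FPKM and Fabp4 (a fatty acid carrier) at 701. Their part in the muscle share was not tested. Whether the muscle RNA came from tissue next to the tumour was not tested.

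**Figure D1:**
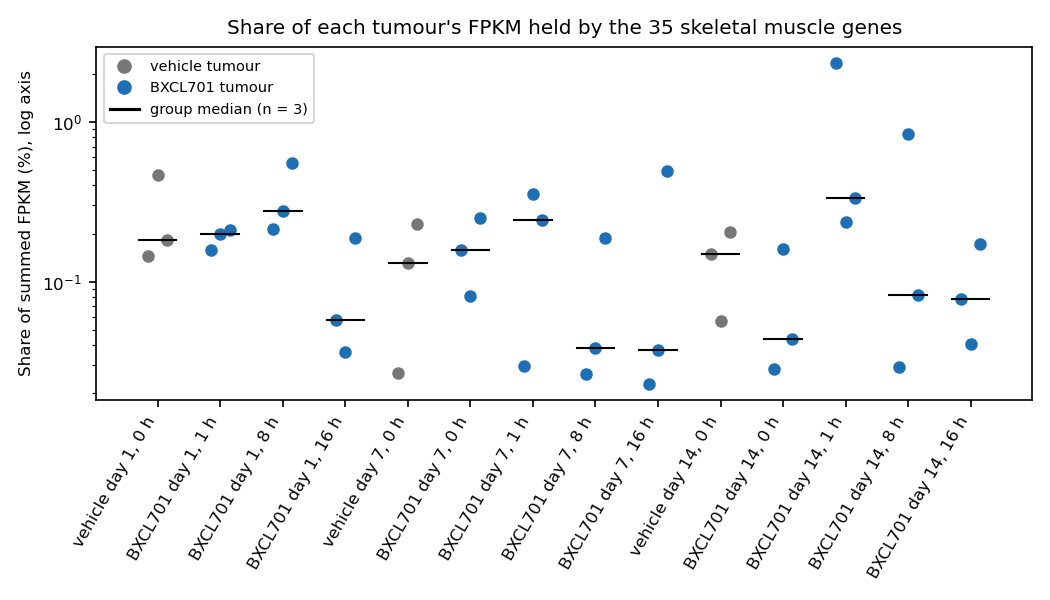
Share of each tumour's summed FPKM held by the 35 muscle genes, on a log axis, for the 14 groups; points are single tumours and black lines are group medians. The single highest tumour (2.33%) is in BXCL701 day 14 at 1 h, and the 5 muscle-poor tumours lie at 0.0290% or lower in 5 groups.

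The libraries themselves were alike in scale. Their summed gene values ran from 19133149 to 26633378, and their median-of-ratios factors from 0.919 to 1.10, but the values are fractional and scaled, so the read depth behind them is unknown. Levels below are log2(value + 1) of that deposited gene table unless FPKM is named. Libraries also differed in how strongly long transcripts were represented. A transcript-length index (how steeply the genes of a library depart from their usual levels as exon length grows) ran from -0.41 (BXCL701 day 7, 8 h, replicate 3) to 0.33 (vehicle day 7, replicate 2). Epithelial tumour markers were present at unequal levels: Krt8 and Krt18, the keratins of simple epithelia, had median FPKM of 592 and 447, whereas Cdh1 (E-cadherin) had 7.98, Krt7 had 7.41 and Epcam had 0.996 and was under a value of 10 in 7 of 42 tumours. The mean of the 7 such markers correlated with the members' mean at r = 0.01 over 42 tumours. Single markers went in both directions. They had r of -0.33 (Krt8), -0.32 (Krt19), -0.20 (Krt18), -0.09 (Cdh1), -0.01 (Epcam), 0.14 (Msln) and 0.33 (Krt7).

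The members were high or low together from tumour to tumour. For each gene, the level was compared with the mean of the other 34 after centring every gene on its own mean. Over 42 tumours the median correlation was 0.960, and 28 of 35 genes had r of at least 0.9. Because the 5 muscle-poor tumours form a separate cluster (Ckm at most 2.34, against at least 5.61 in the rest), the same was computed in the remaining 37. There the median was 0.952 and 25 of 35 genes had r of at least 0.9. The closest followers in those 37 tumours were Acta1 (0.991), Tnnc2 (0.986), Tnnt3 (0.983), Mylpf (0.982) and Casq1 (0.979). The weakest were Tpm2 (0.862), Tnnt1 (0.816), Tnni1 (0.793), Eno3 (0.708), Tnnc1 (0.692) and Myh7 (0.189). These correlations are descriptions over tumours that share their 14 groups, and they carry no test.

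**Figure D2:**
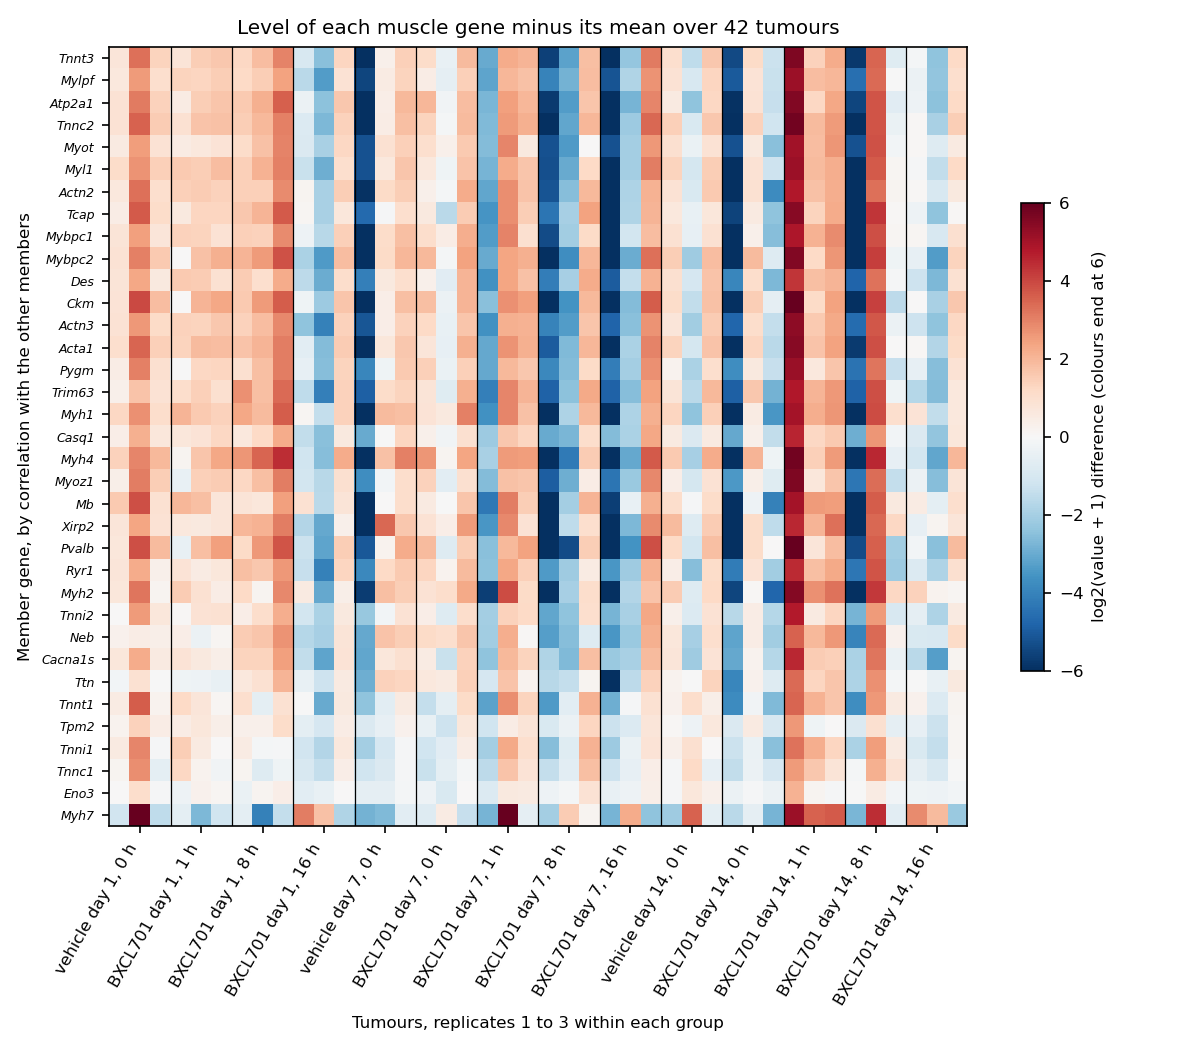
Level of each of the 35 genes (rows, ordered by correlation with the others) in each of 42 tumours (columns, by group), as log2(value + 1) minus the gene's mean; red is above and blue below that mean. Whole columns are red or blue from top to bottom, while Tpm2, Tnni1, Tnnc1 and Eno3 are paler and Myh7 (last row) has its own pattern.

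The promoters of genes that moved together, and of Myh7, which did not, show which muscle motifs lie near their start sites. RefSeq promoters of GRCm38.p6, each 250 bases before to 50 bases after a start, were found for 28 of 35 members (33 entries). Motifs were searched on both strands: the E-box of the MyoD family (CAGCTG, which reads the same on both strands), the TEAD site (CATTCC) and a TATA box (TATAAA). The E-box stood in 18 of 33 member entries (54.5%) against 16.4% of all 32544 promoters of this length. The TEAD site stood in 33.3% of member entries against 14.6%, and the TATA box in 21.2% against 13.6%. A match is a description of the letters and not a bound site. The sequences below are shown 5′ to 3′ on the gene's strand in lower case, with matches to these motifs in capitals. Ckm is the reference gene of the correlations below, Mylpf and Atp2a1 followed the other members closely over 42 tumours with a single E-box each, Tnnc2 did so with no match, and Myh7 has 2 overlapping entries, of which only the first holds a TEAD site.
Mylpf, chr7:127211358-127211657, plus strand: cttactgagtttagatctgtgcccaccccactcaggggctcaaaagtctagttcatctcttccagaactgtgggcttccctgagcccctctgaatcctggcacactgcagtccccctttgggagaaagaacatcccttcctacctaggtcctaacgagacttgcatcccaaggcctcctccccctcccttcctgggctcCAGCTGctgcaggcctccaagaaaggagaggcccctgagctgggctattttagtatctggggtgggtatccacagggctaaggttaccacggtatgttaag
Atp2a1, chr7:126463024-126463323, minus strand: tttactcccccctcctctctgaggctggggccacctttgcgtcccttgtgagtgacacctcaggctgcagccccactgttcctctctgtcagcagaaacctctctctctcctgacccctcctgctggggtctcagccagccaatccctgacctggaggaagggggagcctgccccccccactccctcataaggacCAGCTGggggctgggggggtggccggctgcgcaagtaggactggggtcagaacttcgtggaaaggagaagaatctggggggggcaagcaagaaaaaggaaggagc
Tnnc2, chr2:164779685-164779984, minus strand: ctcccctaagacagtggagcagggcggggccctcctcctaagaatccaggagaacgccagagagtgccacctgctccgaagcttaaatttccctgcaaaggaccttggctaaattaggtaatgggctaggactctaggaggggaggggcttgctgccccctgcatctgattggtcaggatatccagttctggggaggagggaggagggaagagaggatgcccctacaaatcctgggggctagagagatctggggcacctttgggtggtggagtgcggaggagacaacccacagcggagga
Ckm, chr7:19410844-19411143, plus strand: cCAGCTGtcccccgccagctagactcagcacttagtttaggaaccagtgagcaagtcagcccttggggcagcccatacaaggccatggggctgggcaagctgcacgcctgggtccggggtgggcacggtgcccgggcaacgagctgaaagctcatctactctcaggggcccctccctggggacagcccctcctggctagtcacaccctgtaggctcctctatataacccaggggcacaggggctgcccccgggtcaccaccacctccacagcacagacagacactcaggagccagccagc
Myh7 first entry, chr14:54994577-54994876, minus strand: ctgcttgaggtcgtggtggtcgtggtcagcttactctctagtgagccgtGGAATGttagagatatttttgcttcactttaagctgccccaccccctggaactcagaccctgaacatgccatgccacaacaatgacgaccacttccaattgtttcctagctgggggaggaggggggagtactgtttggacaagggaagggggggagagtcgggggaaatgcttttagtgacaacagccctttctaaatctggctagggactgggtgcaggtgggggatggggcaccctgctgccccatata
Myh7 second entry, chr14:54994500-54994799, minus strand: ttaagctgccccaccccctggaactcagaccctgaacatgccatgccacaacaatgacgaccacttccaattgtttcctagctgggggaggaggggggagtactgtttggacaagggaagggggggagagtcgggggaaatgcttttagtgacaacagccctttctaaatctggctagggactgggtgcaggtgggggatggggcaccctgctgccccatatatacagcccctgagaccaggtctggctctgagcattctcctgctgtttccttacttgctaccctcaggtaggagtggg

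The thick filament genes encode the myosin motors and their light chains. Myh4, Myh1 and Myh2 are the fast heavy chains of the type 2B, 2X and 2A fibres, Myh7 is the slow heavy chain, and Mylpf and Myl1 are the fast regulatory and essential light chains. Myh4 had the largest spread between tumours of 1 group among the 35 genes, with a residual SD of 4.05 over the 14-group model. Median FPKM was 13.3 for Myh4, 6.16 for Myh1, 1.34 for Myh2 and 0.0782 for Myh7, and it was 99.4 for Mylpf and 63.5 for Myl1. On day 1, Myh4 levels were 10.47, 12.01 and 11.03 in vehicle tumours at 0 h, 9.27, 10.75 and 11.41 in BXCL701 tumours at 1 h, 11.73, 12.60 and 13.51 at 8 h and 7.91, 6.52 and 11.33 at 16 h. On day 7, Myh4 levels were 0.01, 10.84 and 12.11 in vehicle tumours, 11.74, 9.25 and 11.45 in BXCL701 tumours at 0 h, 7.15, 11.64 and 11.59 at 1 h, 0.01, 4.84 and 10.64 at 8 h and 0.01, 6.02 and 12.77 at 16 h. On day 14, Myh4 levels were 10.68, 7.10 and 11.34 in vehicle tumours, 0.01, 11.14 and 8.83 in BXCL701 tumours at 0 h, 14.90, 10.52 and 11.67 at 1 h, 0.01, 13.60 and 8.58 at 8 h and 8.00, 5.99 and 11.07 at 16 h. Myh4 was at 0.01 in the 5 muscle-poor tumours and reached 14.90 in BXCL701 day 14, 1 h, replicate 1. Each BXCL701 group overlapped the vehicle group of its day. On day 1, Mylpf levels were 9.89, 11.79 and 10.24 in vehicle tumours at 0 h, 10.60, 10.56 and 10.70 in BXCL701 tumours at 1 h, 10.45, 10.74 and 11.67 at 8 h and 7.62, 5.88 and 10.11 at 16 h. On day 7, Mylpf levels were 3.72, 9.73 and 10.58 in vehicle tumours, 9.70, 8.72 and 10.69 in BXCL701 tumours at 0 h, 6.09, 11.26 and 11.01 at 1 h, 5.25, 6.40 and 11.11 at 8 h and 4.06, 7.44 and 11.95 at 16 h. On day 14, Mylpf levels were 10.11, 8.28 and 10.56 in vehicle tumours, 4.23, 10.08 and 7.90 in BXCL701 tumours at 0 h, 14.39, 11.09 and 11.26 at 1 h, 4.73, 12.63 and 9.21 at 8 h and 8.91, 6.87 and 10.25 at 16 h. Mylpf was never below 3.72. At 1 h on day 14 the 3 BXCL701 tumours lay above the 3 vehicle tumours, and in the other 10 BXCL701 groups the ranges overlapped those of vehicle. How many of all genes separate 3 tumours from 3 in this way was not computed. Such separations, here and below, are descriptions of the values and no result about the gene.

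The make-up of the heavy chains also differed between tumours. In the 37 tumours whose 4 heavy chains summed to at least 1 FPKM, Myh4 made up 14.9% to 93.4% of that sum (median 60.6%), Myh1 5.76% to 59.0% (median 29.2%), Myh2 0.530% to 32.1% (median 8.34%) and Myh7 0.00497% to 37.0% (median 0.368%). Myh4 was the largest of the 4 in 28 tumours, Myh1 in 8 and Myh7 in 1. The tumour led by Myh7 was vehicle day 14 replicate 2, whose 4 shares were 26.0% for Myh4, 26.6% for Myh1, 10.4% for Myh2 and 37.0% for Myh7. The 4 chains of that tumour summed to only 3.77 FPKM. Myh7 reached 5% or more in 10 tumours and stayed under 1% in 23. Among those 10, it was 30.5% at a sum of 2.00 FPKM in BXCL701 day 7, 16 h, replicate 2. It was 16.6% at a sum of 61.4 FPKM in vehicle day 1 replicate 2. In the other 5 tumours the 4 chains summed to at most 0.0680 FPKM, and no make-up was computed.

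**Figure D3:**
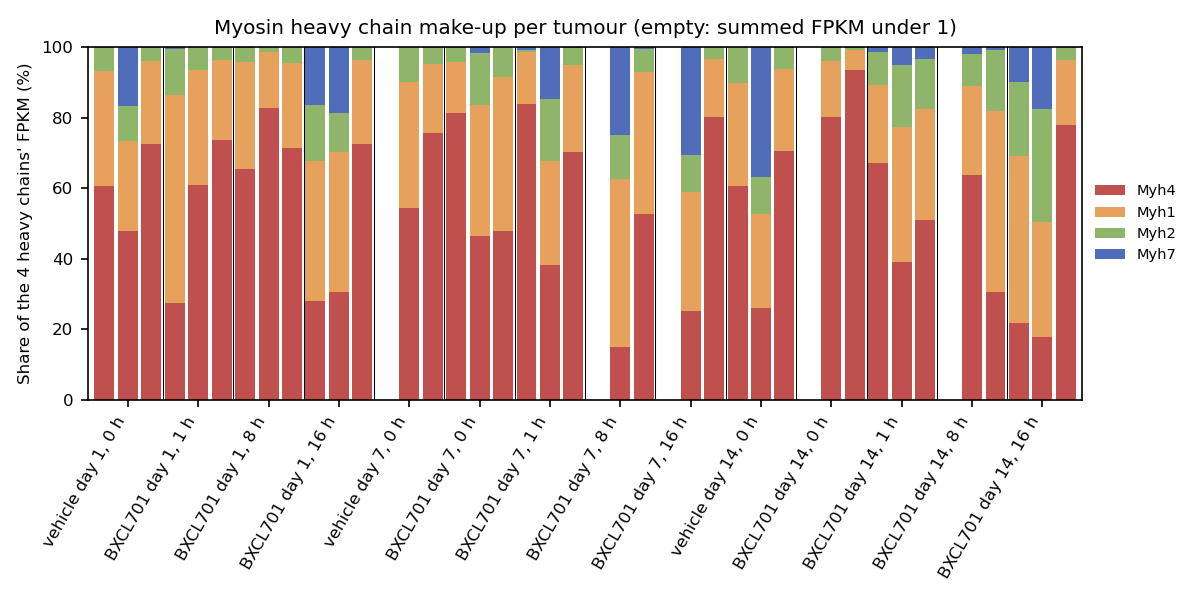
Share of each heavy chain in the FPKM summed over Myh4, Myh1, Myh2 and Myh7, as stacked bars from 0 to 100%, per tumour and grouped by treatment, day and hour; gaps are the 5 tumours with under 1 FPKM in sum. Myh4 (red) leads in 28 of 37 bars, and Myh7 (blue) takes up to 37.0%.

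Myh7, the slow and cardiac beta heavy chain, did not follow the other members. On day 1, Myh7 levels were 2.93, 10.51 and 2.56 in vehicle tumours at 0 h, 3.48, 1.41 and 2.88 in BXCL701 tumours at 1 h, 3.51, 0.04 and 2.66 at 8 h and 7.16, 5.85 and 2.28 at 16 h. On day 7, Myh7 levels were 1.26, 1.45 and 3.47 in vehicle tumours, 3.33, 4.58 and 2.69 in BXCL701 tumours at 0 h, 1.31, 10.28 and 3.54 at 1 h, 2.06, 5.60 and 4.27 at 8 h and 1.32, 6.33 and 1.68 at 16 h. On day 14, Myh7 levels were 1.96, 7.63 and 3.48 in vehicle tumours, 2.49, 3.53 and 1.30 in BXCL701 tumours at 0 h, 9.24, 7.64 and 7.76 at 1 h, 1.35, 8.53 and 3.46 at 8 h and 6.90, 5.99 and 1.85 at 16 h. Myh7 was highest in vehicle day 1 replicate 2 (10.51) and in BXCL701 day 7, 1 h, replicate 2 (10.28). It was 0.04 in BXCL701 day 1, 8 h, replicate 2, a tumour with Ckm at 11.74. At 1 h on day 14 the 3 BXCL701 tumours (7.64 to 9.24) lay above the 3 vehicle tumours (1.96 to 7.63), although 7.64 and 7.63 are nearly equal. In the 37 tumours above the Ckm gap, Myh7 and Ckm gave Pearson r = 0.11 and Spearman rho = 0.04 (permutation p = 0.529 and 0.815, two-sided, both unchanged by adjustment over 14 relations). Without the 2 tumours farthest from the Ckm median, r was 0.01. The permutations, here and below, exchanged the 37 tumours freely and did not keep to the 14 groups. Those 37 were also selected by their Ckm level. The genes that Myh7 did follow are its partner light chains of slow muscle and ventricle, Myl3 (r = 0.91, rho = 0.83) and Myl2 (r = 0.88, rho = 0.71) in the same 37 tumours. This pairing was picked out after the values were seen and has no test. Myl3 was at 8.94 in vehicle day 1 replicate 2, at 6.98 in BXCL701 day 7, 1 h, replicate 2 and at 7.25 in BXCL701 day 14, 1 h, replicate 1, and its median was 1.72.

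**Figure D4:**
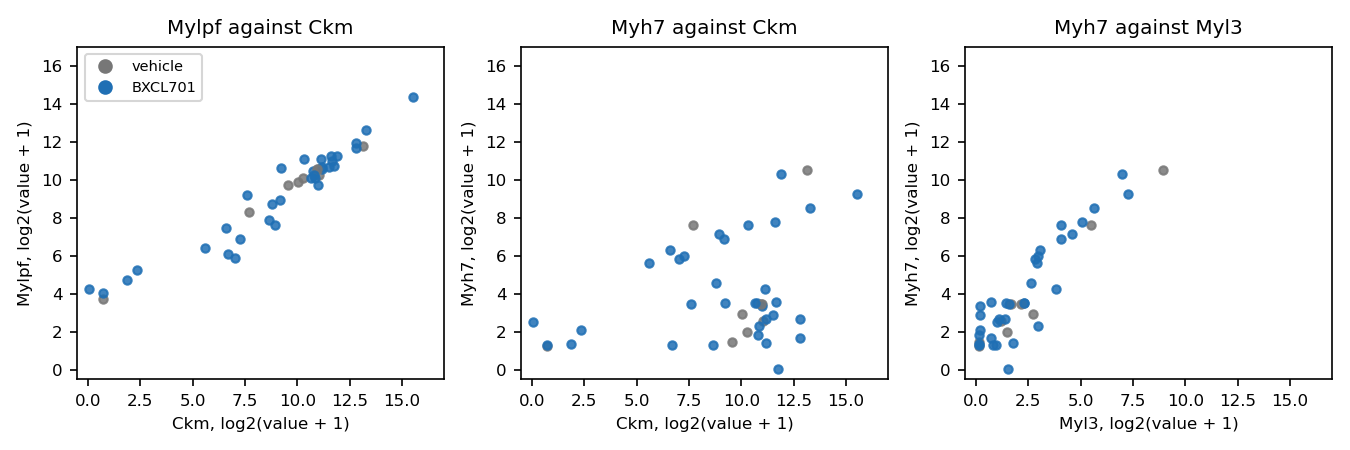
Levels of Mylpf against Ckm (left), Myh7 against Ckm (middle) and Myh7 against Myl3 (right) in 42 tumours, log2(value + 1) on both axes; grey points are vehicle and blue points BXCL701 tumours. Mylpf and Ckm lie along 1 line, Myh7 spreads over the whole height at Ckm above 5, and Myh7 climbs with Myl3.

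Myh7 and Myl3 are also made in the heart, so cardiac markers were examined. Of 8 cardiac markers, 3 passed the filter. Myh6, the atrial heavy chain, had a median level of 0.15 and a highest of 4.53 (BXCL701 day 14, 1 h, replicate 1). Nppa was at 0 in 26 of 42 tumours and under 10 in 42, and Ryr2, the cardiac calcium release channel, was under 10 in 42. Tnni3, cardiac troponin I, was under 10 in only 1 of 42 tumours, with a median level of 4.69 (1.98 FPKM) and r of 0.14 with the members' mean. The summed FPKM of the 8 cardiac markers ran from 0.788 to 4.74, and the list's mean correlated with the members' mean at r = 0.15 in the 37 tumours.

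The thin filament genes encode actin, tropomyosin and the troponins, which hold calcium control. Acta1, skeletal alpha-actin, had the highest median FPKM of the 35 genes (203), followed by Tpm2 (171), beta-tropomyosin. On day 1, Acta1 levels were 12.07, 14.54 and 12.46 in vehicle tumours at 0 h, 12.39, 12.96 and 12.92 in BXCL701 tumours at 1 h, 12.77, 13.11 and 14.13 at 8 h and 10.40, 8.43 and 12.56 at 16 h. On day 7, Acta1 levels were 3.05, 11.75 and 12.66 in vehicle tumours, 11.77, 10.56 and 13.20 in BXCL701 tumours at 0 h, 7.98, 13.75 and 13.19 at 1 h, 6.06, 8.42 and 13.04 at 8 h and 2.40, 9.17 and 14.00 at 16 h. On day 14, Acta1 levels were 12.37, 10.01 and 12.74 in vehicle tumours, 0.76, 12.35 and 9.45 in BXCL701 tumours at 0 h, 16.52, 12.75 and 13.45 at 1 h, 5.31, 14.92 and 11.08 at 8 h and 11.14, 9.30 and 12.21 at 16 h. Acta1 ranged over 15.76 log2 units, from 0.76 in BXCL701 day 14, 0 h, replicate 1 to 16.52 at 1 h of that day. At 1 h on day 14 the 3 BXCL701 tumours lay just above vehicle (lowest 12.75 against highest 12.74), and the other groups overlapped. On day 1, Tnnt3 levels were 10.09, 12.69 and 10.71 in vehicle tumours at 0 h, 10.15, 10.84 and 10.98 in BXCL701 tumours at 1 h, 10.60, 11.23 and 12.35 at 8 h and 8.44, 6.86 and 10.68 at 16 h. On day 7, Tnnt3 levels were 2.74, 9.70 and 10.83 in vehicle tumours, 10.49, 8.95 and 11.29 in BXCL701 tumours at 0 h, 6.37, 11.60 and 11.44 at 1 h, 3.76, 6.18 and 11.18 at 8 h and 3.23, 7.05 and 12.49 at 16 h. On day 14, Tnnt3 levels were 10.37, 7.84 and 10.98 in vehicle tumours, 3.98, 10.53 and 8.07 in BXCL701 tumours at 0 h, 14.99, 10.78 and 11.59 at 1 h, 3.61, 12.86 and 8.63 at 8 h and 9.27, 6.96 and 10.58 at 16 h. Tnnt3, fast troponin T, followed Ckm at r = 0.99 (rho = 0.98, permutation p = 1e-05 for each, the smallest 100000 permutations can give, and adjusted p of 1e-05 and 2e-05) in 37 tumours, and r was 0.98 without the 2 farthest. The muscle genes were listed by name with earlier results of these data known. Small p-values in permutations with Ckm, here and below, were therefore likely beforehand. No BXCL701 group was clear of the vehicle group of its day for Tnnt3. Fast troponin C (Tnnc2) and fast troponin I (Tnni2) had median FPKM of 104 and 90.3, and Tnni2 was present at 6.88 FPKM or more in every tumour.

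Each slow troponin varied less between tumours of 1 group than its fast counterpart, with residual SDs of 1.87 for Tnnt1 against 2.87 for Tnnt3, 1.38 for Tnni1 against 1.69 for Tnni2 and 1.05 for Tnnc1 against 3.36 for Tnnc2. On day 1, Tnnt1 levels were 6.81, 9.95 and 6.49 in vehicle tumours at 0 h, 7.49, 7.01 and 6.41 in BXCL701 tumours at 1 h, 7.29, 5.71 and 7.22 at 8 h and 6.26, 3.28 and 6.90 at 16 h. On day 7, Tnnt1 levels were 3.89, 5.65 and 6.83 in vehicle tumours, 4.89, 5.73 and 7.47 in BXCL701 tumours at 0 h, 3.09, 9.08 and 7.62 at 1 h, 2.88, 5.66 and 8.36 at 8 h and 3.39, 6.21 and 7.20 at 16 h. On day 14, Tnnt1 levels were 6.56, 7.34 and 6.67 in vehicle tumours, 2.54, 6.08 and 3.64 in BXCL701 tumours at 0 h, 9.80, 8.37 and 7.96 at 1 h, 2.59, 8.92 and 6.85 at 8 h and 6.55, 5.47 and 6.45 at 16 h. Tnnt1, slow troponin T, was lower than vehicle in all 3 BXCL701 tumours at 0 h and at 16 h on day 14 and higher in all 3 at 1 h. None of those differences passed the test across genes. On day 1, Tnni1 levels were 7.41, 9.79 and 6.82 in vehicle tumours at 0 h, 8.37, 7.43 and 6.90 in BXCL701 tumours at 1 h, 7.36, 6.76 and 6.80 at 8 h and 5.72, 5.15 and 7.54 at 16 h. On day 7, Tnni1 levels were 4.85, 5.90 and 6.84 in vehicle tumours, 5.68, 6.20 and 7.34 in BXCL701 tumours at 0 h, 4.83, 9.17 and 7.88 at 1 h, 4.32, 6.16 and 8.96 at 8 h and 4.72, 6.50 and 7.70 at 16 h. On day 14, Tnni1 levels were 7.19, 7.87 and 6.89 in vehicle tumours, 5.59, 6.48 and 4.38 in BXCL701 tumours at 0 h, 10.14, 9.08 and 8.17 at 1 h, 5.0, 9.37 and 7.44 at 8 h and 5.98, 5.44 and 7.01 at 16 h. Slow troponin I (Tnni1) had the same order at 0 h and 1 h on day 14, with 0 h below vehicle and 1 h above it. On day 1, Tnnc1 levels were 7.04, 9.67 and 6.33 in vehicle tumours at 0 h, 8.15, 7.12 and 6.67 in BXCL701 tumours at 1 h, 7.04, 6.11 and 6.62 at 8 h and 5.91, 5.49 and 7.29 at 16 h. On day 7, Tnnc1 levels were 5.70, 6.04 and 6.81 in vehicle tumours, 5.54, 6.32 and 6.77 in BXCL701 tumours at 0 h, 5.31, 8.62 and 7.73 at 1 h, 5.48, 6.28 and 8.71 at 8 h and 5.63, 6.41 and 7.28 at 16 h. On day 14, Tnnc1 levels were 6.84, 8.11 and 6.39 in vehicle tumours, 5.40, 6.52 and 5.87 in BXCL701 tumours at 0 h, 9.47, 8.50 and 7.68 at 1 h, 6.76, 9.04 and 7.75 at 8 h and 6.37, 5.94 and 6.88 at 16 h. Tnnc1, the calcium sensor of slow and heart muscle, was at 5.31 or more everywhere and peaked at 9.67 in vehicle day 1 replicate 2, the tumour that also led in Myh7. Each BXCL701 group overlapped vehicle for Tnnc1. The share of the slow copy ran from 2.03% to 25.5% of troponin I FPKM, from 2.15% to 44.1% of troponin T and from 3.02% to 63.6% of troponin C in the 37 tumours with at least 1 FPKM of heavy chains. The 63.6% was in BXCL701 day 7, 8 h, replicate 2, whose heavy chains summed to 1.42 FPKM. At the highest sum, 361 FPKM (BXCL701 day 14, 1 h, replicate 1), the slow share of troponin C was 3.07%. Tnnc1 never fell under 5.31, whereas Tnnc2 fell to 0.0043. Slow fibres and such a floor were not told apart. With Ckm, r in the 37 tumours was 0.68 for Tnnt1, 0.66 for Tnni1 and 0.56 for Tnnc1 (rho 0.64, 0.61 and 0.53, largest permutation p = 0.00096 and largest adjusted p = 0.00103), against 0.94 to 0.99 for Acta1, Mylpf, Tnnt3 and Myh4.

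Tpm2 is also a gene of smooth muscle, and its levels had a floor. On day 1, Tpm2 levels were 12.06, 13.22 and 12.30 in vehicle tumours at 0 h, 12.31, 12.51 and 12.17 in BXCL701 tumours at 1 h, 12.13, 12.16 and 12.94 at 8 h and 11.27, 10.84 and 12.27 at 16 h. On day 7, Tpm2 levels were 10.96, 11.34 and 12.11 in vehicle tumours, 11.39, 10.61 and 12.51 in BXCL701 tumours at 0 h, 10.64, 12.31 and 12.60 at 1 h, 10.94, 11.47 and 13.13 at 8 h and 10.53, 11.03 and 12.57 at 16 h. On day 14, Tpm2 levels were 11.91, 11.54 and 12.45 in vehicle tumours, 10.98, 12.37 and 10.90 in BXCL701 tumours at 0 h, 14.43, 11.58 and 11.86 at 1 h, 10.97, 12.82 and 11.32 at 8 h and 11.34, 10.57 and 11.98 at 16 h. Tpm2 stayed between 10.53 and 14.43, and the muscle-poor tumours held 10.53 to 10.98. All groups overlapped vehicle. Among 8 smooth muscle and pericyte markers Acta2, smooth muscle actin, had a median FPKM of 548 and r of 0.14 with the members' mean over 42 tumours, while Tagln had 0.69, Cnn1 0.68 and Rgs5 0.67. The list's summed FPKM lay between 415.2 and 1177 in all tumours. In 37 tumours its mean correlated with the members' mean at r = 0.56, and its part in the members' levels was not tested.

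The Z disc and scaffold genes hold the filaments in register. Des (desmin) links Z discs, Actn2 and Actn3 are the alpha-actinins, Tcap caps titin, Myot and Myoz1 bind alpha-actinin, Xirp2 binds actin at the ends of the fibre, Mybpc1 and Mybpc2 are the slow and fast myosin-binding proteins C, and Ttn (titin) and Neb (nebulin) run along the filaments. On day 1, Des levels were 10.99, 12.53 and 10.79 in vehicle tumours at 0 h, 11.80, 11.76 and 11.12 in BXCL701 tumours at 1 h, 11.73, 11.25 and 12.46 at 8 h and 8.67, 7.24 and 11.29 at 16 h. On day 7, Des levels were 6.10, 10.83 and 11.24 in vehicle tumours, 10.52, 9.54 and 12.27 in BXCL701 tumours at 0 h, 6.60, 12.61 and 11.99 at 1 h, 6.08, 8.22 and 12.46 at 8 h and 5.21, 8.77 and 12.33 at 16 h. On day 14, Des levels were 11.17, 9.20 and 11.92 in vehicle tumours, 6.33, 11.26 and 7.53 in BXCL701 tumours at 0 h, 14.52, 12.01 and 12.27 at 1 h, 5.42, 13.50 and 10.17 at 8 h and 8.98, 7.54 and 11.15 at 16 h. Desmin was the most abundant of them per length (median FPKM 37.5), and its lowest level was 5.21. It lay above vehicle at 1 h on day 14 in 3 of 3 tumours, with 12.01 as the lowest against 11.92 as the highest vehicle value. The others had median FPKM between 0.467 (Ttn) and 17.9 (Actn3), and r with the other members between 0.89 (Ttn) and 0.98 (Myot) over 42 tumours.

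On day 1, Ttn levels were 9.09, 10.14 and 9.23 in vehicle tumours at 0 h, 8.98, 8.94 and 8.83 in BXCL701 tumours at 1 h, 9.88, 10.18 and 11.27 at 8 h and 8.83, 8.00 and 9.80 at 16 h. On day 7, Ttn levels were 6.31, 10.63 and 10.55 in vehicle tumours, 9.88, 9.79 and 10.68 in BXCL701 tumours at 0 h, 8.24, 10.95 and 9.48 at 1 h, 7.59, 7.80 and 9.41 at 8 h and 2.60, 7.68 and 10.63 at 16 h. On day 14, Ttn levels were 9.46, 9.21 and 10.60 in vehicle tumours, 5.33, 9.49 and 8.46 in BXCL701 tumours at 0 h, 12.66, 10.56 and 10.93 at 1 h, 7.42, 11.99 and 9.13 at 8 h and 9.22, 8.82 and 9.85 at 16 h. Titin was below vehicle in 3 of 3 tumours at 1 h on day 1 (8.83 to 8.98 against 9.09 to 10.14), and the other groups overlapped. On day 1, Neb levels were 7.83, 7.99 and 7.90 in vehicle tumours at 0 h, 7.98, 7.21 and 7.67 in BXCL701 tumours at 1 h, 9.08, 9.21 and 10.26 at 8 h and 5.83, 5.57 and 8.35 at 16 h. On day 7, Neb levels were 4.50, 9.28 and 9.02 in vehicle tumours, 8.69, 8.59 and 9.22 in BXCL701 tumours at 0 h, 5.47, 9.75 and 7.65 at 1 h, 4.27, 5.02 and 6.81 at 8 h and 4.09, 5.35 and 9.69 at 16 h. On day 14, Neb levels were 8.26, 5.56 and 8.59 in vehicle tumours, 4.42, 8.00 and 5.49 in BXCL701 tumours at 0 h, 11.10, 9.49 and 10.16 at 1 h, 3.59, 10.94 and 7.81 at 8 h and 6.67, 6.60 and 8.70 at 16 h. Nebulin lay above vehicle in 3 of 3 tumours at 8 h on day 1 and at 1 h on day 14. As for the other genes, the share of all genes so separated was not computed. Titin and nebulin have exon lengths of 116825 and 26582 bases, against 1062 for Mylpf and 800 for Tnnc2. The difference of Neb from Tnnc2 ran from -4.12 to 0.24 log2 units in 37 tumours and correlated with the transcript-length index at r = 0.88 (rho = 0.83), and the difference of Ttn from Mylpf at r = 0.52 (rho = 0.44). These 2 pairs were compared after the values were seen and have no test. The index was 0.096 to 0.147 in the BXCL701 tumours of day 1, 8 h, above the vehicle tumours of that day (-0.368 to 0.031). It overlapped vehicle at 1 h on day 1 (-0.214 to -0.036). At 1 h on day 14 it also overlapped vehicle (-0.180 to 0.165 against -0.157 to 0.015). Its part in the separations of Neb and Ttn was not tested. With the index as a covariate in the limma model, 0 of 35 members were called in each comparison.

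Calcium handling genes release and take back the calcium of each contraction. Atp2a1, the fast calcium pump, had a median FPKM of 25.6, Pvalb (parvalbumin, the calcium buffer of the fastest fibres) 15.7, Casq1 (calsequestrin) 8.63, Cacna1s (the voltage sensor) 1.79 and Ryr1 (the release channel) 1.27. Their correlation with the other members ran from 0.90 (Cacna1s) to 0.99 (Atp2a1) over 42 tumours. Pvalb spanned 13.03 log2 units, from 0.01 to 13.03. It was under a value of 10 in 7 tumours, while Casq1 and Ryr1 were never under 10.

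The energy and oxygen genes include Ckm, the muscle creatine kinase, Mb, myoglobin, which stores oxygen, Pygm, muscle glycogen phosphorylase, and Eno3, beta-enolase of glycolysis. On day 1, Ckm levels were 10.01, 13.13 and 11.01 in vehicle tumours at 0 h, 9.21, 11.20 and 11.49 in BXCL701 tumours at 1 h, 10.75, 11.74 and 12.81 at 8 h and 8.92, 7.02 and 10.86 at 16 h. On day 7, Ckm levels were 0.70, 9.55 and 10.99 in vehicle tumours, 10.97, 8.81 and 11.19 in BXCL701 tumours at 0 h, 6.68, 11.90 and 11.65 at 1 h, 2.34, 5.61 and 11.14 at 8 h and 0.72, 6.57 and 12.81 at 16 h. On day 14, Ckm levels were 10.28, 7.68 and 10.92 in vehicle tumours, 0.04, 10.67 and 8.65 in BXCL701 tumours at 0 h, 15.51, 10.33 and 11.60 at 1 h, 1.87, 13.30 and 7.62 at 8 h and 9.18, 7.25 and 10.78 at 16 h. Ckm was at or under 2.34 in 5 tumours and at 5.61 or more in 37. Each of the 11 BXCL701 groups overlapped vehicle of its day, and the vehicle tumours alone ran from 0.70 to 13.13. In FPKM, Ckm ran from 0.00163 to 2144, with a median of 68.7, against 12.7 for Mb and 6.51 for Pygm. On day 1, Eno3 levels were 11.61, 12.64 and 11.51 in vehicle tumours at 0 h, 11.26, 11.85 and 11.73 in BXCL701 tumours at 1 h, 11.20, 11.77 and 11.97 at 8 h and 10.95, 11.14 and 11.61 at 16 h. On day 7, Eno3 levels were 11.06, 11.02 and 11.45 in vehicle tumours, 11.30, 10.67 and 11.63 in BXCL701 tumours at 0 h, 10.77, 12.17 and 12.11 at 1 h, 11.27, 11.49 and 12.44 at 8 h and 11.14, 11.26 and 11.94 at 16 h. On day 14, Eno3 levels were 11.53, 12.27 and 11.87 in vehicle tumours, 11.23, 11.54 and 11.23 in BXCL701 tumours at 0 h, 13.65, 11.77 and 11.51 at 1 h, 11.55, 12.07 and 11.41 at 8 h and 11.32, 11.27 and 11.40 at 16 h. Eno3 had the smallest spread of the members (residual SD 0.53 on the log2 scale) with a lowest level of 10.67, and its lowest FPKM, in another tumour, was 70.6. It was lower than vehicle in 3 of 3 tumours at 16 h on day 14 (11.27 to 11.40 against 11.53 to 12.27). Its correlation with Ckm was r = 0.68 (rho = 0.73, permutation p = 1e-05 for each, adjusted p of 1e-05 and 2e-05) in 37 tumours, and r was 0.64 without the 2 farthest.

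Trim63 encodes MuRF1, a ubiquitin ligase that marks muscle proteins for breakdown and is known to rise in wasting muscle. On day 1, Trim63 levels were 5.30, 6.70 and 5.84 in vehicle tumours at 0 h, 6.01, 6.42 and 5.92 in BXCL701 tumours at 1 h, 7.72, 6.78 and 8.37 at 8 h and 3.44, 0.85 and 6.36 at 16 h. On day 7, Trim63 levels were 0.08, 6.07 and 6.31 in vehicle tumours, 5.77, 4.22 and 7.12 in BXCL701 tumours at 0 h, 0.85, 7.89 and 7.00 at 1 h, 0.13, 2.50 and 7.26 at 8 h and 0.10, 2.41 and 7.39 at 16 h. On day 14, Trim63 levels were 5.75, 3.36 and 6.90 in vehicle tumours, 0.09, 6.59 and 2.13 in BXCL701 tumours at 0 h, 9.76, 7.00 and 7.56 at 1 h, 0.10, 8.85 and 4.71 at 8 h and 3.24, 2.38 and 5.58 at 16 h. In all 3 BXCL701 tumours at 8 h on day 1 Trim63 stood above the 3 vehicle tumours of that day (6.78 to 8.37 against 5.30 to 6.70). It also did so at 1 h on day 14. Relative to Acta1, the log2 level of Trim63 at 8 h on day 1 was -5.04, -6.33 and -5.76, against -6.77, -7.85 and -6.62 in the vehicle tumours, so the 3 values were again above the 3. At 1 h on day 14 the same ratio was -6.76, -5.75 and -5.89 against -6.62, -6.65 and -5.85 in vehicle, and the groups overlapped. The ratios at 8 h on day 1 overlapped those of the vehicle tumours of day 7 (-2.97, -5.67 and -6.35) and of day 14. The transcript-length index was also higher in those 3 BXCL701 tumours than in the 3 vehicle tumours of day 1. Its part in the ratio was not tested. This ratio of Trim63 to Acta1 was computed after the values were seen and has no test. Trim63 at 8 h on day 1 did not pass the test across genes.

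No member passed the test in any comparison of treatment, day or hour. Differences were tested with limma on the 14-group model, with Benjamini-Hochberg adjustment over 16613 genes and a threshold of 0.05. On day 1, hours pooled, 0 of 35 members were called, as were 0% of all genes, and 0 members had an unadjusted p under 0.05 (2.63% of all genes). The members' differences had a median of -0.80, with 34 of 35 lower in BXCL701, against a median of 0.03 over all genes. Because the members move together, counts of members higher or lower, in this and later comparisons, are not counts of independent observations. The 3 smallest p-values belonged to Tnnc1 (-0.97, SE 0.67), Tnni1 (-1.11, SE 0.88) and Eno3 (-0.42, SE 0.34), each with adjusted p = 0.906 in limma. Without vehicle day 1 replicate 2, the members' median was -0.08.

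On day 7 again 0 of 35 members were called by limma, beside 0.00602% of all genes, and 0 had an unadjusted p under 0.05. The members' median was 0.38, with 30 of 35 higher in BXCL701, and the median over all genes was -0.03. Myh7 (1.86, SE 1.62), Eno3 (0.33, SE 0.33) and Tnni1 (0.76, SE 0.85) had the smallest p-values, with adjusted p of 0.577, 0.615 and 0.661 in limma. Without vehicle day 7 replicate 1, the muscle-poor vehicle tumour, the median turned to -1.69. On day 14, where 3.29% of all genes were called, 0 of 35 members were called and 0 had an unadjusted p under 0.05. Their median was -0.41, with 28 lower, against -0.01 over all genes, and it was 0.15 without BXCL701 day 14, 8 h, replicate 1. The smallest p-values there were those of Eno3 (-0.23, SE 0.33), Tnnt1 (-0.59, SE 1.15) and Actn2 (-0.88, SE 1.75), with adjusted p of 0.800, 0.863 and 0.868 in limma.

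At 0 h, days 7 and 14 pooled, the only comparison of BXCL701 with vehicle over both days at the same hour, 0.512% of all genes and 0 of 35 members were called by limma, with 0 members at an unadjusted p under 0.05. The members' median was -0.32, with 26 lower, and it was 0.29 without BXCL701 day 14, 0 h, replicate 1. Tnnt1 (-1.10, SE 1.03), Tnnc1 (-0.58, SE 0.58) and Eno3 (-0.27, SE 0.29) came first, with adjusted p of 0.815, 0.838 and 0.857 in limma. The pooled days differed in sign: the members' median was 1.69 on day 7 (35 of 35 higher) and -2.25 on day 14 (35 of 35 lower). Without vehicle day 7 replicate 1 the day 7 median was -0.22.

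Within BXCL701 tumours of days 7 and 14, the comparison of 1 h with 0 h had the largest median difference among the 7 pooled comparisons. All 35 members were higher at 1 h, with a median of 2.27 against -0.02 over all genes, and 0 were called beside 0.012% of all genes. An unadjusted p under 0.05 was reached by 7 members, all higher, against 2.44% of all genes. The members are not independent of each other, so neither count measures the strength of the difference. Tnnc1 was higher by 1.81 (SE 0.58), Tnni1 by 2.27 (SE 0.76) and Tnnt1 by 2.60 (SE 1.03), with unadjusted p of 0.00384, 0.00565 and 0.0166 and adjusted p = 1.00 for each in limma. The remaining 4 were Myh7 (3.64, SE 1.45), Eno3 (0.73, SE 0.29), Mb (3.25, SE 1.58) and Cacna1s (2.06, SE 1.01). The median lay between 1.47 (without BXCL701 day 14, 0 h, replicate 1) and 3.10 (without BXCL701 day 7, 1 h, replicate 1) when single tumours were left out. The members' mean level rose only on day 14, from 5.86 at 0 h to 10.71 at 1 h. On day 7 it was 8.56 at 0 h and 8.25 at 1 h. Single tumours of day 7 were at 8.60, 7.64 and 9.43 at 0 h and at 5.10, 10.31 and 9.32 at 1 h. Markers of other tissues gave other medians in this comparison: of 12 keratinocyte markers 12 were lower (median -2.40), of 10 adipocyte markers 7 were lower (median -0.42) and of 8 smooth muscle markers 5 were higher (median 0.08), and none of these genes was called.

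At 8 h against 0 h the members' median was -0.58 (25 lower, 0 of 35 called beside 0.132% of all genes), and 1 member, Tnnc1, had an unadjusted p under 0.05 (1.26, SE 0.58, adjusted p = 0.511 in limma). Eno3 (0.44, SE 0.29) and Tnni1 (0.93, SE 0.76) were next. At 16 h against 0 h the median was -0.37 (26 lower, 0 called beside 0.00602%, 0 at an unadjusted p under 0.05), led by Ttn (-0.80, SE 0.92), Tnnt1 (0.82, SE 1.03) and Mybpc2 (-1.43, SE 1.86). Both medians turned when 1 tumour was left out, to 0.50 without BXCL701 day 14, 8 h, replicate 1 and to 0.47 without BXCL701 day 7, 16 h, replicate 1.

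**Figure D5:**
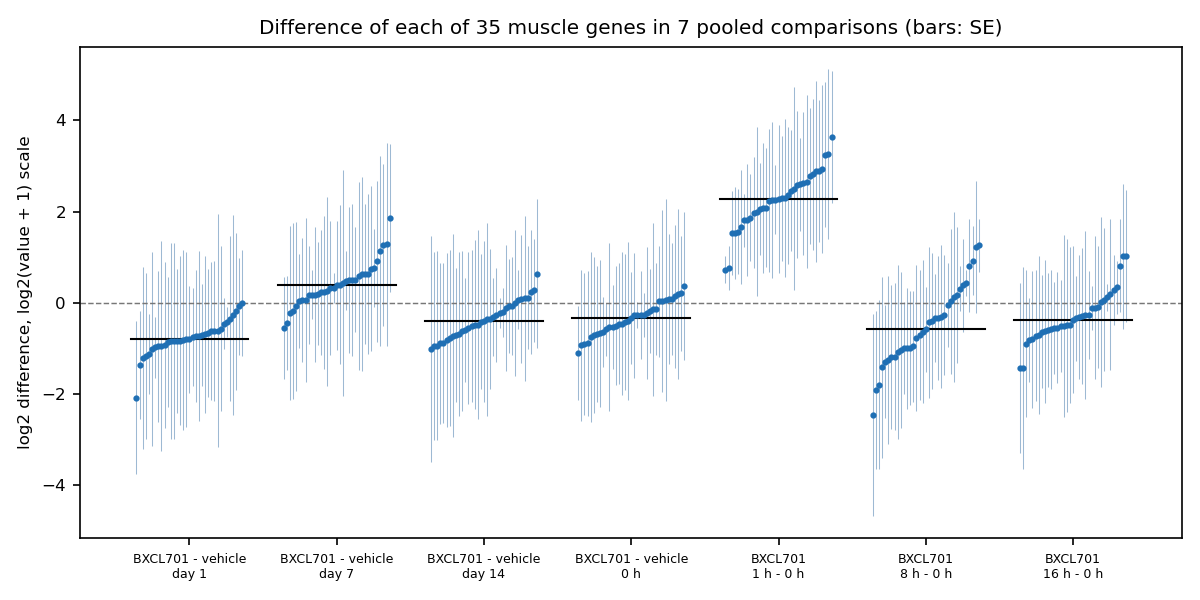
Difference of each of the 35 genes in the 7 pooled comparisons on the log2(value + 1) scale, ordered within each comparison; points are limma estimates, bars their standard errors and black lines the members' medians. Only the comparison of 1 h with 0 h has all 35 points above 0 (median 2.27), and in the other 6 both signs occur or the median is within 0.80 of 0.

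Single harvest times gave larger medians in both directions and no calls. Against vehicle of the same day, limma called 0 of 35 members in each of the 11 BXCL701 groups, and 0 had an unadjusted p under 0.05 in any of them. All-gene shares called were 0% at 1 h and 8 h and 0.012% at 16 h on day 1. They were 0% at 0 h, 1 h and 16 h and 0.301% at 8 h on day 7, and 0.783%, 0.789%, 1.25% and 0.0722% at 0, 1, 8 and 16 h on day 14. On day 1 the members' median was -0.47 at 1 h (first Myh7, Eno3 and Tnnt1), 0.38 at 8 h (Myh7, Tnnc1 and Neb) and -2.21 at 16 h (Tnnc1, Tnni1 and Cacna1s), where 35 of 35 were lower. Those medians became 0.26 at 1 h without vehicle day 1 replicate 2, -0.08 at 8 h without BXCL701 replicate 3 and -1.33 at 16 h without BXCL701 replicate 2. On day 7 it was 1.69 at 0 h (Mb, Atp2a1 and Mybpc1), 1.31 at 1 h (Myh7, Tnni1 and Tnnc1), -0.86 at 8 h (Neb, Eno3 and Pvalb) and -0.62 at 16 h (Ttn, Neb and Xirp2). The day 7 medians at 0 h and 1 h became -0.22 and -0.59 without vehicle day 7 replicate 1, and those at 8 h and 16 h became 0.72 and 1.24 without BXCL701 replicate 1 of their own hour. On day 14 it was -2.25 at 0 h (Mb, Tnnt1 and Myh2), with 35 of 35 lower, 2.67 at 1 h (Neb, Cacna1s and Myh7), with 35 of 35 higher, -0.88 at 8 h (Tnnc1, Tnnc2 and Pvalb) and -0.72 at 16 h (Eno3, Tnni1 and Tpm2). These 4 groups share the same 3 vehicle tumours. Without BXCL701 replicate 1 of the hour the day 14 medians were -0.75 at 0 h, 1.46 at 1 h and 1.28 at 8 h. Over all 24 comparisons, the sign of the members' median changed in 16 when a single tumour was left out. The largest difference of a member in these 11 comparisons was -4.48 for Mb at 0 h on day 14 (SE 2.24, adjusted p = 0.422 in limma).

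Vehicle tumours alone differed as widely. From day 1 to day 7 all 35 members were lower, with a median of -2.57, led by Tnni1 (-2.15, SE 1.08, adjusted p = 0.275 in limma), Mb (-4.10, SE 2.24) and Tnnc1 (-1.49, SE 0.82). That median was -0.63 without vehicle day 7 replicate 1, in whose absence the change from day 7 to day 14 also turned to -0.57. From day 1 to day 14 it was -1.15 (34 lower, first Pygm, Cacna1s and Myoz1) and from day 7 to day 14 it was 1.45 (34 higher, first Eno3, Tnni1 and Mb). Limma called 0 of 35 members in each, beside 0%, 0.0602% and 0% of all genes, with 0 members at an unadjusted p under 0.05. The differences between day effects were also tested, and 0 of 35 members were called beside 0% of all genes, with 0 members at an unadjusted p under 0.05. Members' medians were -0.73 for day 14 minus day 7 (first Eno3, Tnni1 and Mb), 0.28 for day 14 minus day 1 (Myh7, Tnnc1 and Tnni1) and 1.03 for day 7 minus day 1 (Myh7, Eno3 and Tnnc1). Without vehicle day 7 replicate 1 the first and last of these became 1.19 and -0.93, and without vehicle day 1 replicate 2 the second became -0.33.

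The members varied more between animals of 1 group than most genes. The members' median residual SD was 2.64 log2 units, against 0.39 for the median of all 16613 genes and 2.53 at their 99th percentile. The median standard error of a member's difference was 1.62 for the pooled days 7 and 14, 1.45 for the pooled hours and 2.05 for a single time. Groups accounted for a median of 33.7% of a member's variance between tumours, against 38.7% for all genes. With 14 groups of 3, a large share arises without any group effect, and neither value was set against that share. In simulated day 14 data, limma called 44% and 50% of genes raised and lowered by 1 log2 unit and 78% and 76% of those changed by 2, over genes of all spreads. Those genes were picked at random, with noise drawn separately for each gene. No share was computed for genes that vary as much as the members, so these percentages do not describe the members.

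Other muscle genes followed the same course. A list of 53 further skeletal muscle genes had 53 pass the filter, and 0 were called in any of the 24 comparisons. In the 1 h against 0 h comparison 53 of 53 were higher (median 1.92), and on day 14, hours pooled, 33 were lower (median -0.19). The list's mean level correlated with the members' mean at r = 0.996 in 37 tumours and 0.989 in 42. By mean value, Pfkm (muscle phosphofructokinase) and Hspb6 (a small heat-shock protein) were among its highest, and they had r of only 0.41 and 0.57, while Jph2 (junctophilin, 0.87) and Eef1a2 (a translation factor of muscle and nerve, 0.99) followed more closely. Of the regulators that switch on muscle genes, Myod1 had a median level of 4.65 and a highest of 7.93, Myog 6.28 and 9.10, and Myf6 4.24 and 7.95, with r of 0.84, 0.86 and 0.93. Pax7 and Myf5, markers of muscle stem cells, were under a value of 10 in 42 of 42 tumours. The embryonic and perinatal heavy chains Myh3 and Myh8 had medians of 6.29 and 6.37 and r of 0.85 and 0.89. The fetal acetylcholine receptor subunit Chrng had 5.09 and 0.85, whereas Ankrd1 (r = 0.01) and the ubiquitin ligase gene Fbxo32 (0.32) did not follow.

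The genes outside every list most like the members over 42 tumours were Hfe2 (hemojuvelin, r = 0.98), Mypn (myopalladin of the Z disc, 0.98), Trim72 (membrane repair, 0.97), Klhl31 (0.97), Pdlim3 (a Z disc protein, 0.97), Ckmt2 (mitochondrial creatine kinase, 0.96), 3425401B19Rik (0.96), Cmya5 (0.96), Trim54 (a relative of Trim63, 0.96) and Apobec2 (0.96). Of 16457 genes compared, 41 had r of at least 0.9 and 137, or 0.832%, of at least 0.8. Of the other tissues, myeloid and fibroblast markers had a list mean with r = 0.57 over 42 tumours and 0.34 in 37, of which the collagen genes Col1a2 (0.70) and Col1a1 (0.59) were above 0.5 and the other 6 were under it, among them Dcn (-0.20), Ptprc (-0.08) and Pdgfrb (-0.02). Keratinocyte markers had 0.29 and 0.20 and adipocyte markers 0.01 and 0.15. What these shared movements come from was not tested.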

How the data were processed

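Tumour RNA of 42 animals (14 groups of 3) was analysed from the authors' deposited tables. The deposited gene signal values, in a table named as counts, are not whole numbers (0.0812% of those above 0 are whole). They were treated as scaled estimates, and no count test was used. Deposited log2 FPKM values gave FPKM and an alternative. A copy of them in another gene order (largest difference 0) was not used. The submitters' processing notes name Trimmomatic 0.36, Bowtie 0.12.9 and GRCm38. The quantification tool, annotation and scaling were not given in the sources used here.

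Kept genes reached a value of 10 in 3 or more libraries (16613 of 47729). Limma (version 3.58.1, R 4.3.3, files read by data.table version 1.17.8) was fitted to log2(value + 1), a pseudocount of 1, as a single model of the 14 groups with 28 residual degrees of freedom, an intensity trend and robust settings. Benjamini-Hochberg adjustment ran over 16613 genes within each of 24 comparisons, threshold 0.05. Pooled comparisons weight groups equally. Differences on this scale understate changes of low genes. The procedure was tested on simulated data of 16613 genes for BXCL701 against vehicle on day 14. In each direction 50 genes were changed by 1 and 50 by 2 log2 units, and 12 false calls fell among the genes left unchanged. Python 3.11.15 with pandas 2.3.3, numpy 2.4.6, scipy 1.17.1 and matplotlib 3.10.9 served for shares, permutation tests and figures. Exon lengths are from GENCODE M21 (GRCm38).

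All 35 members are accounted for. Named genes were 15 members with values per tumour, the 3 members of smallest p in each comparison, up to 4 other muscle genes by mean value, and the 10 genes most like the members. The members and gene lists were chosen with earlier results of these data known. Alternatives covered median-of-ratios scaling, no filter, a pseudocount of 5, the log2 FPKM values, only the libraries compared, the transcript-length index, no trend, and leaving out each library. The result of 1 further marker list is not reported here. Columns of no listed sample numbered 0.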

Additional observations from a re-analysis of the deposited data

Results flagged for a closer look

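Tumours far from the rest of their arm were looked for in 6 arms of 6 or 9 tumours (BXCL701 on day 1, and each harvest hour over days 7 and 14) with Dixon's test at 95%, for the 15 genes with values per tumour and for the share of summed FPKM. Of 96 tests 18 found one, where chance gives about 1 in 20, and the tests are not independent because the genes move together and arms mix days. Levels are log2(value + 1). The share was tested as a percentage and not on a log scale, where its high values would stand less far apart.

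On the low side, BXCL701 day 14, 0 h, replicate 1 stood apart for Ckm (0.040, next lowest 8.65), Acta1 (0.76, next 9.45) and Myh4 (0.0072, next 8.83). Vehicle day 7 replicate 1 did so for Ckm (0.70, next 7.68), Acta1 (3.05, next 10.01), Mylpf (3.72, next 8.28) and Ttn (6.31, next 9.21). BXCL701 day 7, 1 h, replicate 1 did so for Tnnt1 (3.09, next 7.62), Des (6.60, next 11.99) and Trim63 (0.85, next 7.00). BXCL701 day 7, 16 h, replicate 1 was low for Ttn (2.60, next 7.68), and BXCL701 day 1, 16 h, replicate 2 for Tnnt1 (3.28, next 5.71).

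On the high side, the share of summed FPKM was 2.33% in BXCL701 day 14, 1 h, replicate 1 (next highest 0.356%), 0.839% in BXCL701 day 14, 8 h, replicate 2 (next 0.188%), 0.492% in BXCL701 day 7, 16 h, replicate 3 (next 0.171%) and 0.554% in BXCL701 day 1, 8 h, replicate 3 (next 0.275%). Eno3 reached 11.94 in BXCL701 day 7, 16 h, replicate 3 (next 11.40), and Myh7 reached 7.63 in vehicle day 14 replicate 2 (next 3.48), the tumour in which Myh7 led the heavy chains. No difference between day effects passed the limma test for a member.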

How the results depend on the processing

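No paired analysis was possible because replicate numbers only follow the order of the sample records. For the 24 comparisons, 0 of 35 members were called in each of 426 alternative results, 258 of them leaving out a library (range 0 to 0). Each such result is a comparison under another setting, and many of them come from the same fit. With the members' own mean as a covariate, added after seeing the data and built from the genes tested, 1 member was called for BXCL701 day 7, 8 h against vehicle (Myot, -1.07, adjusted p = 0.0493 in limma), where calls over all genes went from 50 to 1271. Of 1422 alternative values of 72 named differences, 23 changed direction and none passed the threshold.

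With the transcript-length index as covariate, Eno3 turned to 0.051 on day 14, -0.14 on day 7, -0.31 at 8 h on day 7, 0.19 for day 14 minus day 7 and -0.068 for day 7 minus day 1, and Tnni1 to -0.019 on day 7 and 0.17 for day 14 minus day 7. Without the 4 libraries of extreme index (added after seeing the data), Eno3 at 1 h on day 1 turned to 0.055, Tnnc1 on day 1 to 0.025, Tnni1 for day 14 minus day 1 to -0.090, Tnnt1 at 1 h on day 1 to 0.32 and Xirp2 at 16 h on day 7 to 0.39. The cause was not tested.

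Leaving out 1 library gave ranges across 0 for Eno3 (-0.51 to 0.055) and Tnnt1 (-1.41 to 0.32) at 1 h on day 1, Tnnc1 on day 1 (-1.65 to 0.025), Mb for day 14 minus day 7 (-3.69 to 0.35), Mybpc1 at 0 h on day 7 (-0.21 to 4.11), Pvalb (-4.36 to 0.11) and Tnnc2 (-4.72 to 0.97) at 8 h on day 14, Tnni1 for day 14 minus day 1 (-0.090 to 1.40), Ttn at 16 h against 0 h (-1.72 to 0.29) and Xirp2 at 16 h on day 7 (-4.77 to 0.69). With log2 FPKM, correlations with the other members moved by at most 0.0900. The depth of the libraries is unknown, so the floor of detection was not computed.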

Other observations

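After Myl3 and Myl2, the genes with levels most like those of Myh7 over 42 tumours were Comp (cartilage oligomeric matrix protein of tendon and cartilage, r = 0.67), Tnnc1 (0.61), Tppp3 (0.60), Tnnt1 (0.60), Emilin3 (0.60), Cryab (a small heat-shock protein, 0.60), Dlx5 (0.59) and Prob1 (0.59). They were looked up after the values were seen and carry no test.

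Genes of 2 other tissues around a subcutaneous tumour also ranged widely between animals. The 12 keratinocyte markers summed to between 15.2 and 855 FPKM (median 34.5), with Krt14 (basal keratin) at a level of 0.65 to 13.20 and Krt1 (suprabasal keratin) at 0 in 24 of 42 tumours. The 10 adipocyte markers summed to between 30.9 and 3745 FPKM (median 209), with Adipoq (adiponectin) at 3.50 to 11.64. Trp63, a transcription factor of basal epithelium, had r = -0.55 with the muscle genes' mean over 42 tumours, while the other 11 markers of that list had r between 0.03 (Ivl) and 0.46 (Sbsn).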
